A study of Homo sapiens with 10 samples.

Results

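The zinc finger genes of chromosome 7 were examined for H3K9me3 in human fibroblasts after knockdown of ERH. They were chosen by name and place, as the protein-coding genes of chromosome 7 (GRCh38) with a digit after ZNF, ZFP, ZSCAN or ZKSCAN at the head of the symbol. This gave 39 genes of 20037 protein-coding genes on chromosomes 1 to 22, X and Y. After ERH knockdown 17 of the 39 (43.6%) carried a called H3K9me3 region and 22 did not, against 10.5% of all protein-coding genes with one. Of the 17, 12 lay beside the centromere among the 14 genes from ZNF713 to ZNF92. In each of the 16 covered genes whose strand was known, more of the 3′ than of the 5′ side was covered. This held for 54.3% of all protein-coding genes with a region and a strand. Among such zinc finger genes elsewhere it held for 90.4% on chromosome 19 and 76.9% on the remaining chromosomes. The group from ZNF786 to ZNF775, toward the end of the long arm, carried no region in any of its 11 members. This count of 0 lies near the 10.5% of all protein-coding genes with a region. Zinc finger genes outside chromosomes 7 and 19 gave 41.5%.

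The study used BJ cells, a foreskin fibroblast line, and CUT&RUN, in which an antibody guides a nuclease fusion to its target and the released DNA is sequenced. The labels give 4 groups: H3K9me3 after non-targeting siRNA (siControl, 3 samples), H3K9me3 after siERH (3 samples), and SOX2 after siControl or siERH with Sendai virus delivery of OCT4, SOX2, KLF4 and c-MYC (2 samples each, 48 hours after infection). The siRNA was given at 5 nM in 2 rounds 3 days apart. The results rest on 1 region list into which the authors merged the 3 siERH H3K9me3 samples, so there is 1 value per gene, without an error between replicates and at an unknown sequencing depth. The siControl and SOX2 groups were not analysed here, so no value says whether a region depends on ERH, and because the list holds no expression values neither the fall of ERH nor the fibroblast label was checked.

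Most zinc finger genes encode DNA-binding proteins with a row of fingers written in 1 long last exon. Many also carry a KRAB domain, which recruits the co-repressor TRIM28 and through it the H3K9 methyltransferase SETDB1, so that sites bound by the protein gain H3K9me3 and are silenced. The genes sit in clusters that grew by tandem duplication, and H3K9me3 over the 3′ exons of the genes themselves is a known feature of such clusters. ERH is a small conserved protein whose counterpart in fission yeast takes part in forming heterochromatin.

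To show the DNA at the starts of these genes, the 250 bases before the start are given for ZNF479 and ZNF679, whose starts lay in a region. They are followed by those of ZNF107 and ZNF92, the most alike pair of upstream windows of which 1 gene had a region and the other had none. The sequences are from RefSeq (GRCh38.p14), 5′ to 3′ on the strand of the gene, at chr7:57139865-57140114 (minus strand), chr7:64228224-64228473 (plus), chr7:64665883-64666132 (plus) and chr7:65373605-65373854 (plus). Capitals mark each CG dinucleotide, the site of DNA methylation in human cells.
ZNF479: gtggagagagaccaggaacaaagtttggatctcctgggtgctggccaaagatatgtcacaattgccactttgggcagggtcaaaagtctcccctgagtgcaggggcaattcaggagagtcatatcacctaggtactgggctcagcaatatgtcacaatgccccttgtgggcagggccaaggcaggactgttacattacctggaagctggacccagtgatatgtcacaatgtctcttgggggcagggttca
ZNF679: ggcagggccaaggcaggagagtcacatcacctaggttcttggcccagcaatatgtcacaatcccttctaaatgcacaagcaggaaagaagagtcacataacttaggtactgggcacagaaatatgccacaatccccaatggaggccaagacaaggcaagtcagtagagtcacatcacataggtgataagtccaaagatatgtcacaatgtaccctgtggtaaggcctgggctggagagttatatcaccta
ZNF107: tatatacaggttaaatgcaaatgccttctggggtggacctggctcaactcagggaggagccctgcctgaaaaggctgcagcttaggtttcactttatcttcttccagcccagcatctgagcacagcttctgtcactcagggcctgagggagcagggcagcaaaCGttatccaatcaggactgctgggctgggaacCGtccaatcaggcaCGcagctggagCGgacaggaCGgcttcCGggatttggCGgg
ZNF92: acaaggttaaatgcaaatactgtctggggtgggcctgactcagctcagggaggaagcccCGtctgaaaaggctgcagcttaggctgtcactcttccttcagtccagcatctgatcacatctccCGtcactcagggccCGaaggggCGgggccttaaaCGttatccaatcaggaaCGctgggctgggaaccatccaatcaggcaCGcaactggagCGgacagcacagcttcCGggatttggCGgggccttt

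In all, 43.6% of the chromosome 7 zinc finger genes shared at least 1 bp with a region (17 of 39, Wilson 95% interval 29.3 to 59%, counting error only, and clustered genes are not independent). Over all protein-coding genes the share was 10.5%, and over the 899 other protein-coding genes of chromosome 7 it was 12.6%. Zinc finger genes elsewhere gave 69.8% on chromosome 19 (183 of 262) and 41.5% on the remaining chromosomes (110 of 265). The member share was thus close to that of zinc finger genes outside chromosome 19. These differences were not tested.

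Length moved with the count. Members with a region had a median length of 38.5 kb and those without one 23.2 kb, whereas the medians over all protein-coding genes were 127 kb with a region and 20.5 kb without. Among protein-coding genes of 10 to 100 kb, 7.78% had a region. The part of length in the members' count was not tested.

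The amount covered also varied among the members. At least 40% of the gene body lay in regions in 8 of the 39 members (20.5%), against 0.644% of all protein-coding genes. Among zinc finger genes this was 19.5% on chromosome 19 and 15.1% on the remaining chromosomes. Over the 17 members with a region the covered share ran from 1.59% to 87.7% with a median of 25.2%, and the quartiles were 19.6% and 54.6%. The median was 3.44% over all protein-coding genes with a region, 26.2% over zinc finger genes of chromosome 19 with one, and 30.1% over those of the remaining chromosomes. Summed over the 1.90 Mb of member gene bodies, 9.99% was covered, against 1.09% of all protein-coding gene bodies. For zinc finger genes it was 20.2% on chromosome 19 and 8.71% on the remaining chromosomes.

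**Figure D1:**
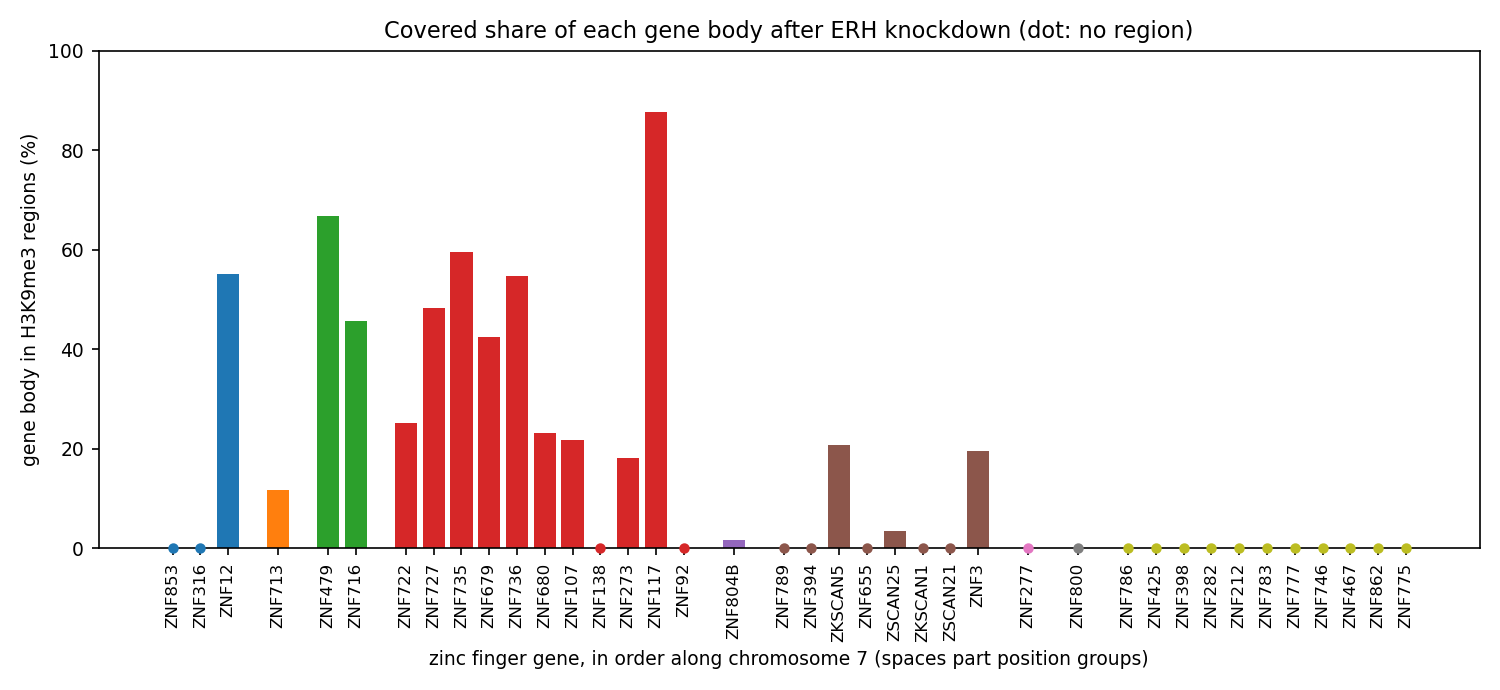
Share of each gene body in H3K9me3 regions (y axis, percent) for the 39 zinc finger genes in order along chromosome 7 (x axis), coloured by position group, with a dot for a gene without a region. ZNF117 is highest at 87.7%, and the 11 genes from ZNF786 to ZNF775 are all at 0.

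Members whose gene bodies lie within 1 Mb of the next formed 9 position groups, and 6 of these had a region. The groups differed widely. Regions were found in 9 of 11 members from ZNF722 to ZNF92 just beyond the centromere on the long arm, in both ZNF479 and ZNF716 and in ZNF713 on the short arm side, and in 1 of 3 members from ZNF853 to ZNF12 toward the end of the short arm. On the long arm further out they were found in ZNF804B, in 3 of 8 members from ZNF789 to ZNF3, in neither ZNF277 nor ZNF800, and in 0 of 11 from ZNF786 to ZNF775.

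The ZNF722 to ZNF92 group spans chr7:63998849-65401136 and holds mainly KRAB-type zinc finger genes. Within it 28.5% of the 436 kb of member gene bodies lay in regions, and 9.28% of the 967 kb between them. The coverage was therefore denser on the genes than between them, though the gaps held regions too. Only 3 other protein-coding genes are annotated among these members, and the 2 with a region, ERV3-1 and the read-through gene ERV3-1-ZNF117, overlap ZNF117. Over the whole stretch from ZNF713 to ZNF92, 2 of 27 other protein-coding genes (7.41%) had a region, and these genes are short, with a median length of 1.73 kb.

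ZNF117 had the highest covered share of the 39 genes, 87.7% of its 19.3 kb. It lies downstream of ERV3-1, a gene of an endogenous retrovirus, and can be transcribed together with it. Its regions were chr7:64971206-64987531, with a score of 182591, and chr7:64989910-64991899, with a score of 15422. The score is a whole number that the authors deposited for each region with no unit, and it serves here only to rank regions within the list. The second, short region covered the start of ZNF117 and reached into ERV3-1, while the window at the start of ERV3-1 itself lay outside every region.

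ZNF735 was next in this group, with 59.5% of 13.1 kb covered by a single region at chr7:64212500-64232705. That region, with a score of 139823 and a length of 20.2 kb, was the longest that touched a member and the only one that touched 2 of them. It began inside ZNF735, ran 12.4 kb past its 3′ end and ended inside ZNF679, whose start it covered. ZNF679, covered over 42.5% of 38.5 kb, had another small region at chr7:64240984-64243942 and a long one over its 3′ end at chr7:64257785-64276181.

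ZNF736 was covered over 54.6% of 42.7 kb by 2 neighbouring regions. The larger, chr7:64339386-64354288, had the highest score of any region on a member, 193367, and the highest score per base pair, 13.0. ZNF727 was covered over 48.3% of 39.9 kb by chr7:64064567-64081221 and chr7:64082727-64101216. The remaining covered members of the group had less: ZNF722 25.2%, ZNF680 23.2%, ZNF107 21.7% and ZNF273 18.2%. In each of these 4 the longest region was between 9.87 and 12.7 kb long.

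ZNF138 and ZNF92 were the members of this group without a region. ZNF138 lies between the covered ZNF107 and ZNF273, whereas ZNF92 is the last member of the group, set apart from ZNF117. They were not alike in distance. The nearest region began 1.65 kb beyond ZNF92, past its 3′ end, and lay 64.3 kb from ZNF138. Their upstream windows were 84.6% identical to each other, and ZNF107, which had a region, shared 82.2% with ZNF92 and 81.7% with ZNF138. Alike starts therefore went with both outcomes in the gene body.

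**Figure D2:**
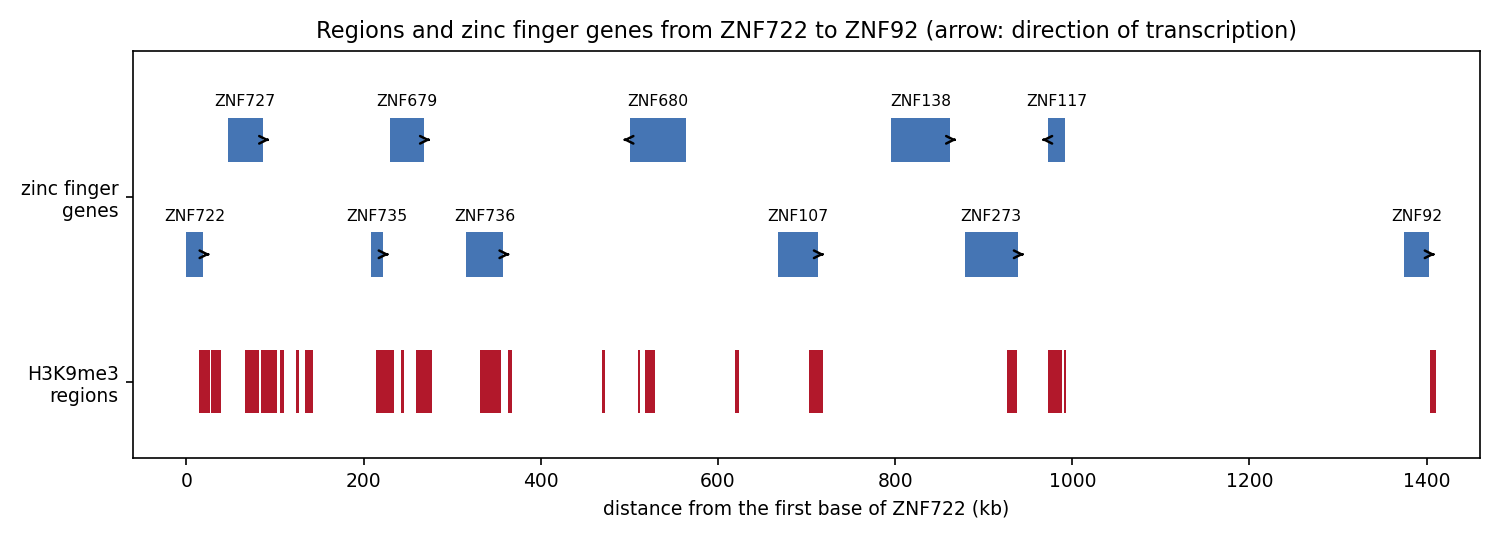
Gene bodies (blue, arrow in the direction of transcription) and H3K9me3 regions (red) against distance from the first base of ZNF722 in kb. Regions sit at the arrow end of most genes, ZNF138 has none near it, and the region by ZNF92 starts 1.65 kb past the gene.

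On the short arm side of the centromere, ZNF479 was covered over 66.8% of 22.2 kb. Its regions were chr7:57116383-57129808, over the 3′ part of the gene with a score of 117267, and chr7:57137170-57140487, over the start. ZNF716, a neighbour 310.3 kb away, was covered over 45.6% of 23.4 kb, mainly by chr7:57465532-57481110 with a score of 162011. Between these genes 12.3% of the sequence lay in regions, against 55.9% of the gene bodies. ZNF713, which stands alone by the 1 Mb rule, was covered over 11.6% of 54.8 kb by chr7:55935846-55943185, with a score of 92011. That region had the second highest score per base pair among those on members, 12.5, so a small covered share did not mean a low score.

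Toward the short arm end, ZNF12, a KRAB repressor, was covered over 55.1% of 18.5 kb by chr7:6687468-6698643, with a score of 127035. Its neighbours ZNF316 and ZNF853 had none, with the nearest region 6.99 kb and 41 kb away. In this small group the spaces between genes were covered more than the genes, at 46.3% against 21.2%.

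The ZNF789 to ZNF3 group mixes genes with a SCAN domain, which pairs such proteins with each other, and KRAB genes. ZKSCAN5, with both domains, was covered over 20.8% by chr7:99528154-99534391, with a score of 59274. ZNF3, a KRAB gene, was covered over 19.6% by chr7:100070378-100074052, with a score of 24191. ZSCAN25 was covered over 3.34% of 121.1 kb by chr7:99704447-99708491, a region that also lay in CYP3A7, a cytochrome P450 gene of the foetal liver, within the long ZSCAN25 gene model. ZNF789, ZNF394, ZNF655, ZKSCAN1 and ZSCAN21 had no region and lay 5.34 to 40.5 kb from the nearest. Of the 11 other protein-coding genes between these members, 3 had a region (CYP3A7, CYP3A7-CYP3A51P and CYP3A43), against 3 of the 8 members. The region on ZSCAN25 also touched CYP3A7 and its read-through gene CYP3A7-CYP3A51P, so these counts share a region and are not separate.

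ZNF804B differs from the other covered members. It is a very long gene of 579 kb whose protein is not of the KRAB type, and 2 small regions, chr7:89138195-89144627 and chr7:89245171-89247937, covered 1.59% of it. This lay near the 1.09% of all protein-coding gene bodies.

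The ZNF786 to ZNF775 group spans chr7:149069641-150398630, and none of ZNF786, ZNF425, ZNF398, ZNF282, ZNF212, ZNF783, ZNF777, ZNF746, ZNF467, ZNF862 and ZNF775 had a region. By the rule that a count of 0 allows about 3 at 95% confidence, 0 in 11 genes allows a share of up to 27.3%. The rule takes the genes as independent, which clustered genes are not. The limit includes the 10.5% of all protein-coding genes and the 7.78% of those of 10 to 100 kb. The 0 therefore does not set the group apart from protein-coding genes at large. Zinc finger genes elsewhere gave higher shares, 41.5% outside chromosomes 7 and 19 and 69.8% on chromosome 19. The limit was worked out for this group because its count was 0, so it cannot serve as a test of this difference. The difference was not tested. The set includes ZNF746, a repressor also known as PARIS, and ZNF282, described as a repressor acting on a viral promoter. Regions did occur in the span, where 2.64% of the 1043 kb between members was covered, but the nearest region was 11.3 kb (ZNF746) to 418 kb (ZNF786) from a member. None of the 6 other protein-coding genes there had a region either. The single genes ZNF277 and ZNF800 were 262 kb and 52.7 kb from the nearest region.

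Where the regions lay within the genes was measured for the 16 covered members with a strand in the RefSeq table, each gene being cut into 10 equal parts from start to end. ZNF804B, ZNF394, ZNF777 and ZNF746 have no entry there. In 16 of 16 the 3′ side of the gene (parts 6 to 10) was covered more than the 5′ side (parts 1 to 5). Over all protein-coding genes with a region and a strand the share was 54.3%, and over those that are no zinc finger genes it was 48.5% of 1475. Zinc finger genes elsewhere leaned the same way, with 90.4% of 157 on chromosome 19 and 76.9% of 91 on the remaining chromosomes.

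Mean coverage of the 16 genes was 14.1% on the 5′ side and 61.4% on the 3′ side. It was lowest in part 2, at 3.10%, and highest in part 9, at 78.3%. In ZNF12, ZNF479, ZNF735 and ZNF117 parts 6 to 10 were covered in full. ZNF679 had the most even split, 37.4% against 47.6%, and its start lay in the region shared with ZNF735. For genes that are no zinc finger genes the means were flat, 5.00% and 5.48%.

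**Figure D3:**
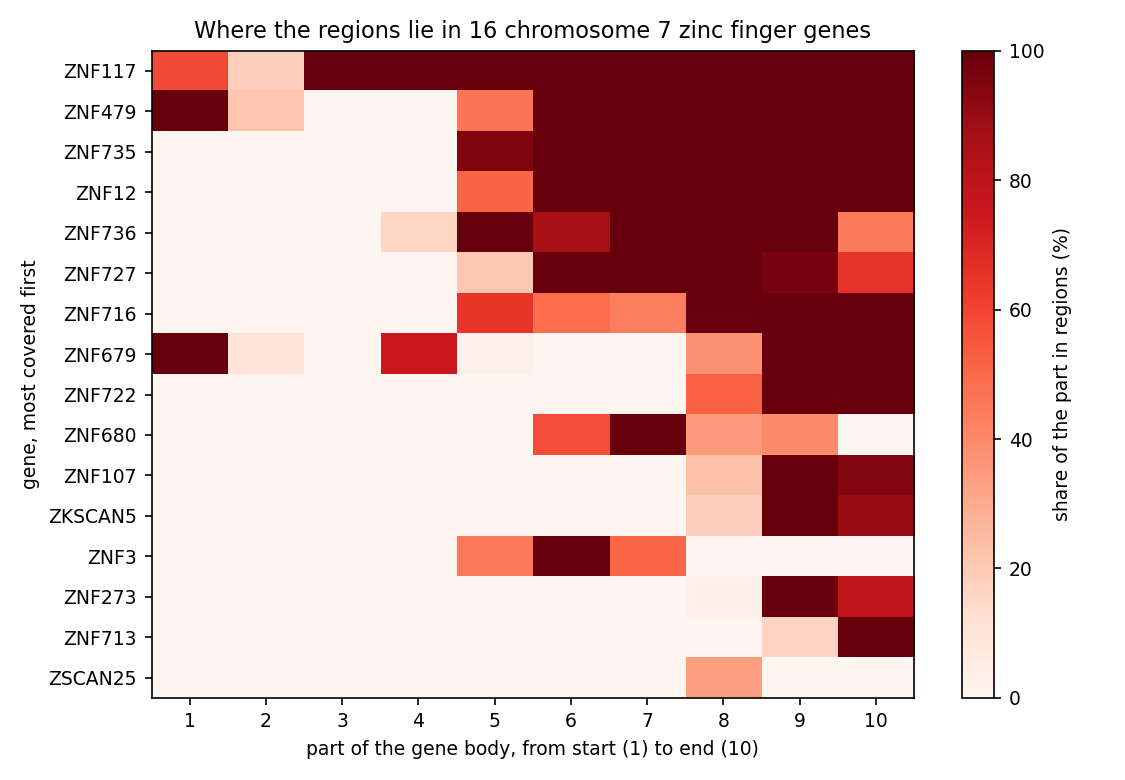
Share of each of 10 equal parts of the gene body in regions (colour, percent) from start to end (x axis) in the 16 covered genes with a known strand (y axis), most covered first. Dark cells gather in parts 6 to 10, and ZNF117, ZNF479 and ZNF679 are also covered in part 1.

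**Figure D4:**
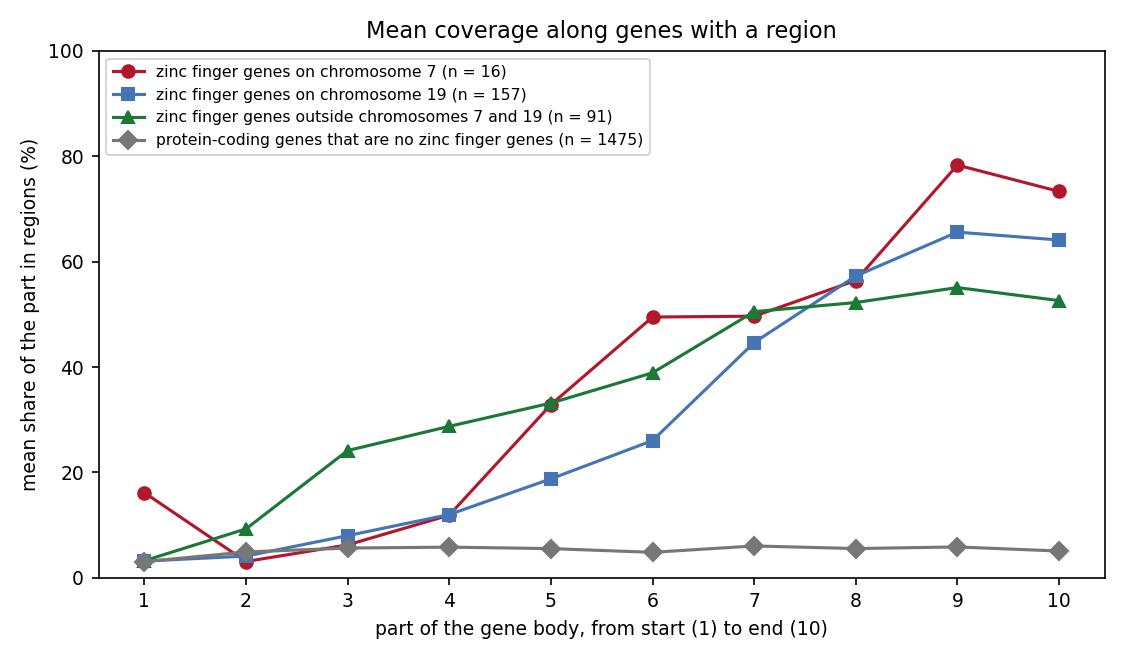
Mean share in regions (y axis, percent) of each of 10 equal parts from start to end (x axis) for genes with a region, by set. The chromosome 7 zinc finger genes rise from 3.10% in part 2 to 78.3% in part 9, and genes that are no zinc finger genes stay flat.

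The 3′ end itself lay inside a region in 9 of the 16 genes, and there the region ran on by 0.57 kb (ZNF117) to 15.9 kb (ZNF727) beyond the gene. In ZNF107, ZKSCAN5, ZNF273 and ZNF736 the last region ended 0.26 to 2.35 kb short of the gene end. In ZNF3, ZNF680 and ZSCAN25 it ended 6.54, 9.07 and 29.5 kb short. No exon positions were used here, so the regions were not assigned to the finger exon.

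The starts were mostly free. Of the 35 members with a start window (250 bp before to 50 bp after the start), 3 had it in a region: ZNF117, ZNF479 and ZNF679. This is 8.57%, against 0.151% of 15842 protein-coding genes, 0.877% of 228 zinc finger genes on chromosome 19 and 0.467% of 214 on the remaining chromosomes. The count is small and rests in part on weak regions. The regions at the starts of ZNF479 and ZNF117 had scores of 17202 and 15422, below the median score of the list, and without regions below that median only ZNF679 kept its start in a region.

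Taken over all members, the DNA before the starts moved with the coverage, but not within every position group. In the 250 upstream bases, ZNF479 and ZNF679 held 0 CG dinucleotides and ZNF117 held 1, the lowest 3 counts of the 35 members, and 8.16% of all protein-coding windows held at most 1. The 13 members covered elsewhere in the gene held a median of 12 (range 6 to 25), and the 19 without a region a median of 25 (range 10 to 40). The median over all protein-coding genes was 17. Over the 24 with the window in a region, ZNF117, ZNF479 and ZNF679 included, it was 2, and 41.7% of them held at most 1. G and C together made up a median of 54.4% in members with a region and 70.8% in those without one. The ranges of covered and uncovered members overlap, and ZNF12 combined 21 CG dinucleotides with 55.1% coverage.

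Position moved with CG count as well. The windows from ZNF722 to ZNF92 had a median of 7 CG dinucleotides, including 10 each in the uncovered ZNF138 and ZNF92, and the 9 windows of the ZNF786 to ZNF775 group had a median of 28. Within the ZNF789 to ZNF3 group the covered ZKSCAN5, ZSCAN25 and ZNF3 held 18, 19 and 25, and the uncovered windows 15 to 24. In the ZNF853 to ZNF12 group the covered ZNF12 held 21, and the uncovered ZNF853 and ZNF316 held 40 and 36. The part of position or CG count in the coverage was not tested.

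**Figure D5:**
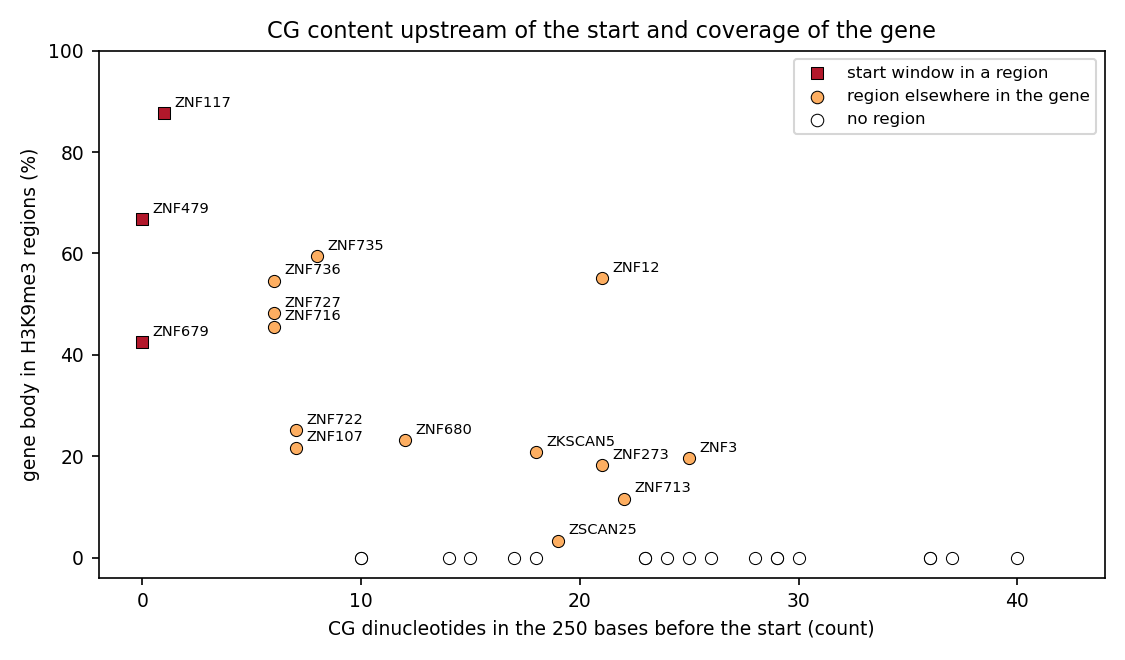
Share of the gene body in regions (y axis, percent) against the number of CG dinucleotides in the 250 bases before the start (x axis) for 35 genes. Squares, genes whose start window lies in a region, stand at 0 or 1, and open circles, genes without a region, stand at 10 or more.

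The windows of ZNF479 and ZNF679, printed above, resembled each other in their repeated letters. The run ATATGTCACAAT occurred 3 times in the first and 2 times in the second, and on either strand in no other of the 15842 windows. It was picked from these sequences as the longest run found at least 2 times in both. ZNF117 did not share it.

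A different run was common to the starts of several centromere-side genes. TTATCCAATCAGG, the longest run that at least 6 member windows hold (both strands searched), was found in the windows of ZNF716, ZNF722, ZNF680, ZNF107, ZNF138 and ZNF92, and it can be read in lower case in the ZNF107 and ZNF92 sequences above. It contains CCAAT, the letters of a common promoter element. It occurred in 0.120% of all windows (19 of 15842), of which 16 belonged to zinc finger genes. Among the 228 windows of zinc finger genes on chromosome 19 it occurred in 3.95%. Of the 6 members with the run, 4 had a region and 2 did not. A match describes the letters only.

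The regions on members were longer than most. The 25 regions that touched a member had a median length of 9.87 kb, against 3.67 kb for the 619 other regions of chromosome 7, and 12 of the 25 reached 10 kb against 43 of the 619. Thus 12 of the 55 regions of at least 10 kb on chromosome 7 (21.8%) lay on zinc finger genes. Their median score was 91138 against 24160 for the others. Per base pair the medians were closer, 8.12 against 6.86 score units, and a long region touches a gene more easily than a short one. How reads shared by near-identical zinc finger genes were placed is not stated, so a region may belong in part to a similar gene.

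The genes through which KRAB zinc finger proteins and H3K9me3 act were looked at for comparison, as a list of 22. Of these 6 had a region (27.3%, against the background of 10.5%): SETDB1 (4.85% covered), SETDB2 (5.34%), ATF7IP (5.75%), ATF7IP2 (15.2%), KDM4B (1.66%) and KDM4C (0.617%). SETDB1 writes the mark, ATF7IP is its partner, and KDM4B and KDM4C are demethylases of it. TRIM28, the CBX genes for the readers of the mark, the SUV39H genes and ERH had none. The 6 genes with a region are 38.5 to 454.8 kb long, and the others of the list 4.4 to 281.3 kb. Over all protein-coding genes the median length was 127 kb with a region and 20.5 kb without one. The part of length in this count was not tested. All 6 covered shares lay below the lower quartile of the covered members, 19.6%. Over all protein-coding genes with a region the median was 3.44%, with quartiles of 1.65% and 9.01%.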

How the data were processed

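CUT&RUN regions for H3K9me3 came from 1 list without a header, merged over the 3 siERH samples per the labels. The authors deposited a score for each of its 10536 rows (645 on chromosome 7) without naming the unit, and it was used only within the list. Region lengths and scores were summarised without rows that continue another region, 1 of them on chromosome 7, which leaves 644 regions there. Per the submitters' processing notes the build was hg38 and the tools included Bowtie2 2.3.4.1, SAMtools 1.16.1, SEACR 1.3, bedtools 2.27.1, deepTools 3.5.0 and R 3.6.3. The calling threshold, any control and the merging are not given in the sources used here.

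Gene positions, strands and upstream sequences were taken from RefSeq tables of GRCh38.p14, which give no exons. All 39 members have a position and 35 a start window. Opposite-strand windows that overlap matched in 2068 of 2068 pairs. Overlap means at least 1 bp. Window identity came from global alignment (match 1, mismatch -1, gap opening -3, extension -0.5). Positions are 1-based. The arithmetic was tested on simulated data, with 0 errors in 500 and 200 checks. Python 3.11.15, numpy 2.4.6, scipy 1.17.1, biopython 1.88 and matplotlib 3.10.9 were used.

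With 1 pooled list there was no test between groups, and every value is a description. The members and lists were chosen with earlier results of these data known. Every member is named. Told in full were the 2 most covered of each position group with a region, the 5 most covered overall and those with the start in a region. The sequence of the ZNF117 window is not printed, and protein features were not analysed here. As alternatives, regions under 2 kb, regions scored below the median or continued pieces were left out, regions within 5 kb were joined, 10% coverage was required, 5 kb was added to each gene side, and members were linked over 0.5 or 2 Mb.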

Additional observations from a re-analysis of the deposited data

How the results depend on the processing

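The number of members with a region was 17 under each of the 4 alternatives on regions, 15 when 10% of a gene had to be covered (without ZNF804B and ZSCAN25) and 18 with 5 kb added on both sides, which brought in ZNF92. Position groups with a region numbered 5 or 6 under every alternative. The covered share of the summed gene bodies, 9.99%, was 9.93% with regions of at least 2 kb, 9.21% with scores at or above the median, 10.4% with regions within 5 kb joined and 10.5% with 5 kb added. The median of 25.2% did not move under the 4 alternatives on regions. Of 68 values for single genes 13 moved, among them ZNF117 from 87.7% to 100% with joining, and ZNF479 from 66.8% to 54.7%, ZNF716 from 45.6% to 34.3% and ZNF804B from 1.59% to 1.11% with scores at or above the median. A single-gene value counted as moved when it left the Wilson 95% interval of its main value, with each base taken as 1 trial. Covered bases lie together in regions, so this interval is too narrow and small shifts count as moved. In alternatives chosen after the data were seen, 15 genes (with joining, when ZNF117 was covered in full on both sides) or 16 were covered more on the 3′ side. The number of starts in a region fell from 3 to 2 (without ZNF117) at 2 kb and to 1 with scores at or above the median, since the dropped regions are short or low in score. Depth is unknown, so a gene without a region may carry the mark below the calling threshold. No paired analysis was possible because the list pools the replicates of 1 group. Protein features planned for the members were not run.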

Other observations

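Zinc finger pseudogenes of chromosome 7, looked at after the main values were seen, also carried regions. Of 8 so named, 5 had one, against 48 of all 925 pseudogenes on the chromosome (5.19%). The 8 are 1.01 to 77.6 kb long, and pseudogenes of like length or place were not compared. The part of length and place in this count was not tested. ZNF90P3 and ZNF680P1, short copies of 1.53 and 1.01 kb near the covered centromere-side genes, lay in regions over 100% of their length. ZNF733P and ZNF734P in the same stretch were covered over 13.2% and 12.2%. ZNF767P, which lies between ZNF746 and ZNF467 in the group without any covered member, was covered over 17.5% of its 77.6 kb. ZNF890P, ZNF815P and ZNF619P1 had none, with the nearest region 23.7, 265 and 114 kb away.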
